A study of Mus musculus with 20 samples.

Results

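A set of 9 genes of lipoprotein carriage, cholesterol efflux and the liver X receptors (LXRs) were followed through microglial RNA of mice with and without amyloid plaques. They were taken by symbol as Apoe, Apoc1, Apoc2, Abca1, Abcg1, Nr1h2, Nr1h3, Mylip and Lpcat3, and all 9 were found among the 21315 gene symbols listed. RNA was sequenced in 20 libraries from the brains of C57BL/6 mice that were 9 months old, of either sex. APP-KI mice carry the APP NL-G-F knock-in, in which a humanized Aβ sequence with the Swedish, Iberian and Arctic mutations replaces the same part of the animal's own App gene, and they develop plaques without overexpression of a transgene. C3aR-KO mice lack the receptor for the complement fragment C3a, in every cell, and came from a line backcrossed to C57BL/6J. Microglia were taken as CD45mid CD11b+ cells after digestion of the brain with papain. In 14 libraries these cells were not selected further, and they are called all sorted here, with 3 libraries of WT mice, 5 of APP-KI; C3aR-KO, 3 of APP-KI alone and 3 of C3aR-KO alone. In 6 libraries, 3 WT and 3 APP-KI, all from mice with a Td-tomato reporter in the endogenous C3ar1 locus (the C3ar1 fl/fl line), the red cells were kept and are called C3aR-positive. APP-KI libraries, with or without C3ar1, are called libraries with plaques, although plaques were not measured in them here. The labels do not say that replicates are separate animals, so that p-values measure the spread between these samples. In bulk RNA, fewer cells of a type and less RNA per cell cannot be told apart.

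Brain cells cannot break down the ring of cholesterol, and much of it moves between cells on lipoprotein particles. ABCA1 and ABCG1 pass cholesterol and phospholipid across the cell membrane to apolipoproteins, of which ApoE is the main one in the brain, and ApoC-I and ApoC-II are small apolipoproteins that modulate lipases and receptor binding. LXRα (Nr1h3) and LXRβ (Nr1h2) are nuclear receptors that sense oxidized cholesterol, pair with retinoid X receptors and switch on a programme that holds Apoe, Abca1, Abcg1, Mylip and Lpcat3. MYLIP, also named IDOL, is a ubiquitin ligase that acts in lipoprotein uptake, and LPCAT3 builds polyunsaturated chains into membrane phospholipids.

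Apoe and Abca1 are both known as LXR targets and moved in opposite directions here, so the 250 bases before their starts are shown, as RefSeq gives them for GRCm38.p6. LXR with its partner is known to bind a direct repeat of AGGTCA with a gap of 4 bases, and the promoters were searched on either strand for the best match to its 12 fixed letters. The promoter of Abca1 lies at chr4:53159896-53160145 on the minus strand. Its best match had 3 mismatches, on the opposite strand, from 67 to 52 bases before the start, and is given in capitals.

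Abca1: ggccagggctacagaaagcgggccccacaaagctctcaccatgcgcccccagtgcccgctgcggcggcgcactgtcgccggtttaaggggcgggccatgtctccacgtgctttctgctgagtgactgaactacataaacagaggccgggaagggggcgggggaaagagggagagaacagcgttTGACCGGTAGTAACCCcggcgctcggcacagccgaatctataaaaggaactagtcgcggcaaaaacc

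The promoter of Apoe lies at chr7:19699189-19699438, also on the minus strand.

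Apoe: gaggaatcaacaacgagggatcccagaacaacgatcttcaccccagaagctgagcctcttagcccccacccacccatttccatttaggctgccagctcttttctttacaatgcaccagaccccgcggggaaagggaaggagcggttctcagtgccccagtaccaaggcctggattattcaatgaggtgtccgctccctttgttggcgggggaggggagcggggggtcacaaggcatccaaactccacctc

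No stretch of this Apoe promoter came closer than 5 mismatches, so that none of it is in capitals. Of the 32851 promoters in the table, 18.5% hold a match as good as that of Abca1, which makes such a match common. The limit of 3 mismatches for capitals was set after the sequences were seen. Of the 9 genes, 7 have an entry in the table, and the best match in the RefSeq promoter nearest the annotated start had 4 mismatches for Apoc2, Nr1h2, Nr1h3 and Lpcat3 and 6 for Mylip. The promoter of Nr1h3 belongs to a start 7718 bases from the annotated one, and those of 2 other RefSeq starts of Apoe, 567 and 790 bases away, have 4 mismatches. A match in this window is a description of letters and was not tested against binding.

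Apoe sits on chromosome 7 of GRCm38 at 19696109 to 19699188, on the minus strand, with Apoc1 next to it at 19689481 to 19692660, then Apoc4 at 19678083 to 19681479 and Apoc2 at 19671579 to 19677941. Abca1 lies on chromosome 4 at 53030787 to 53159895, Abcg1 on chromosome 17 at 31057675 to 31117988, Nr1h2 on chromosome 7 at 44549616 to 44553951, Nr1h3 on chromosome 2 at 91184061 to 91202834, Mylip on chromosome 13 at 45389742 to 45412022, and Lpcat3 on chromosome 6 at 124663027 to 124704418. Their exonic lengths run from 744 bases for Apoc1 to 10363 for Abca1. Lpcat3 shares 334 exonic bases, 10.2% of its length, with Emg1 on the opposite strand, and Apoc2 shares 646, or 79.5%, with the gene model Gm44805. Whether strand was used in counting is not given in the sources used here, so that reads of Lpcat3 and Emg1 over the shared bases cannot be told apart.

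Values are given on a common scale, in which each library's reads were divided by the 75th percentile of its own gene counts and multiplied by 35.1. They are called scaled values, and they were not divided by gene length except where said. The libraries held between 13939559 and 76608464 reads. In 4 libraries, APP-KI replicate 4, C3aR-KO replicates 1 and 2 and APP-KI; C3aR-KO replicate 1, reads fell on only 12387 to 13250 genes, in APP-KI replicate 5 on 21219, and in the 15 others on 14888 to 17450. The library numbers recorded with the files fall into 3 series, of which the first is the C3aR-positive libraries, and these 5 libraries are all of the second. Without the 4, C3aR-KO is left with replicate 3 alone, and without APP-KI replicate 5 as well APP-KI is left with replicate 6 alone. The summed markers of neurons came to 37.8 in APP-KI replicate 5 and to 8.30 or less in every other library. Those of microglia were lowest, at 10292 and 12215, in APP-KI; C3aR-KO replicate 1 and APP-KI replicate 4. The other libraries of these groups were at 20395 to 28142.

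C3ar1, the gene deleted in the knockout and tagged in the reporter line, checks the labels. In WT all sorted libraries its scaled values were 275, 329 and 339, in C3aR-KO 39.8, 65.5 and 67.9, in APP-KI 165, 314 and 387, and in APP-KI; C3aR-KO between 61.7 and 80.1 with a median of 75.7. C3ar1 fell by 2.39 on the log2 scale in C3aR-KO against WT (limma, adjusted p = 0.00339) and by 1.95 in APP-KI; C3aR-KO against APP-KI (adjusted p = 0.00973). The C3aR-positive libraries labelled WT held only 37.5, 70.8 and 81.0, as low as the knockout and below all WT libraries that were not selected for the receptor, while those labelled APP-KI held 200, 251 and 382. The level of C3ar1 in the libraries labelled WT C3aR-positive thus goes against the name of the sort. The reporter line carries an altered C3ar1 gene and its transcript was not examined here, so that what lowers C3ar1 in these libraries was not tested. Each result in C3aR-positive libraries is therefore set beside the same comparison in all sorted libraries, which does not use them.

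Apoe had the largest change of the members tested with limma, and it rose with APP-KI in each of the 3 comparisons of mice with and without plaques. In WT all sorted libraries its scaled values were 2947, 5632 and 5865, and in C3aR-KO libraries 2957, 3427 and 4424. In APP-KI all sorted libraries they were 13107, 14196 and 28166, and in APP-KI; C3aR-KO 9438, 14566, 26682, 27666 and 30528. The lowest library with plaques lay above the highest without them. In the C3aR-positive libraries the values were 3677, 4699 and 4774 in WT and 18382, 23381 and 28808 in APP-KI, again with no overlap.

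**Figure D1:**
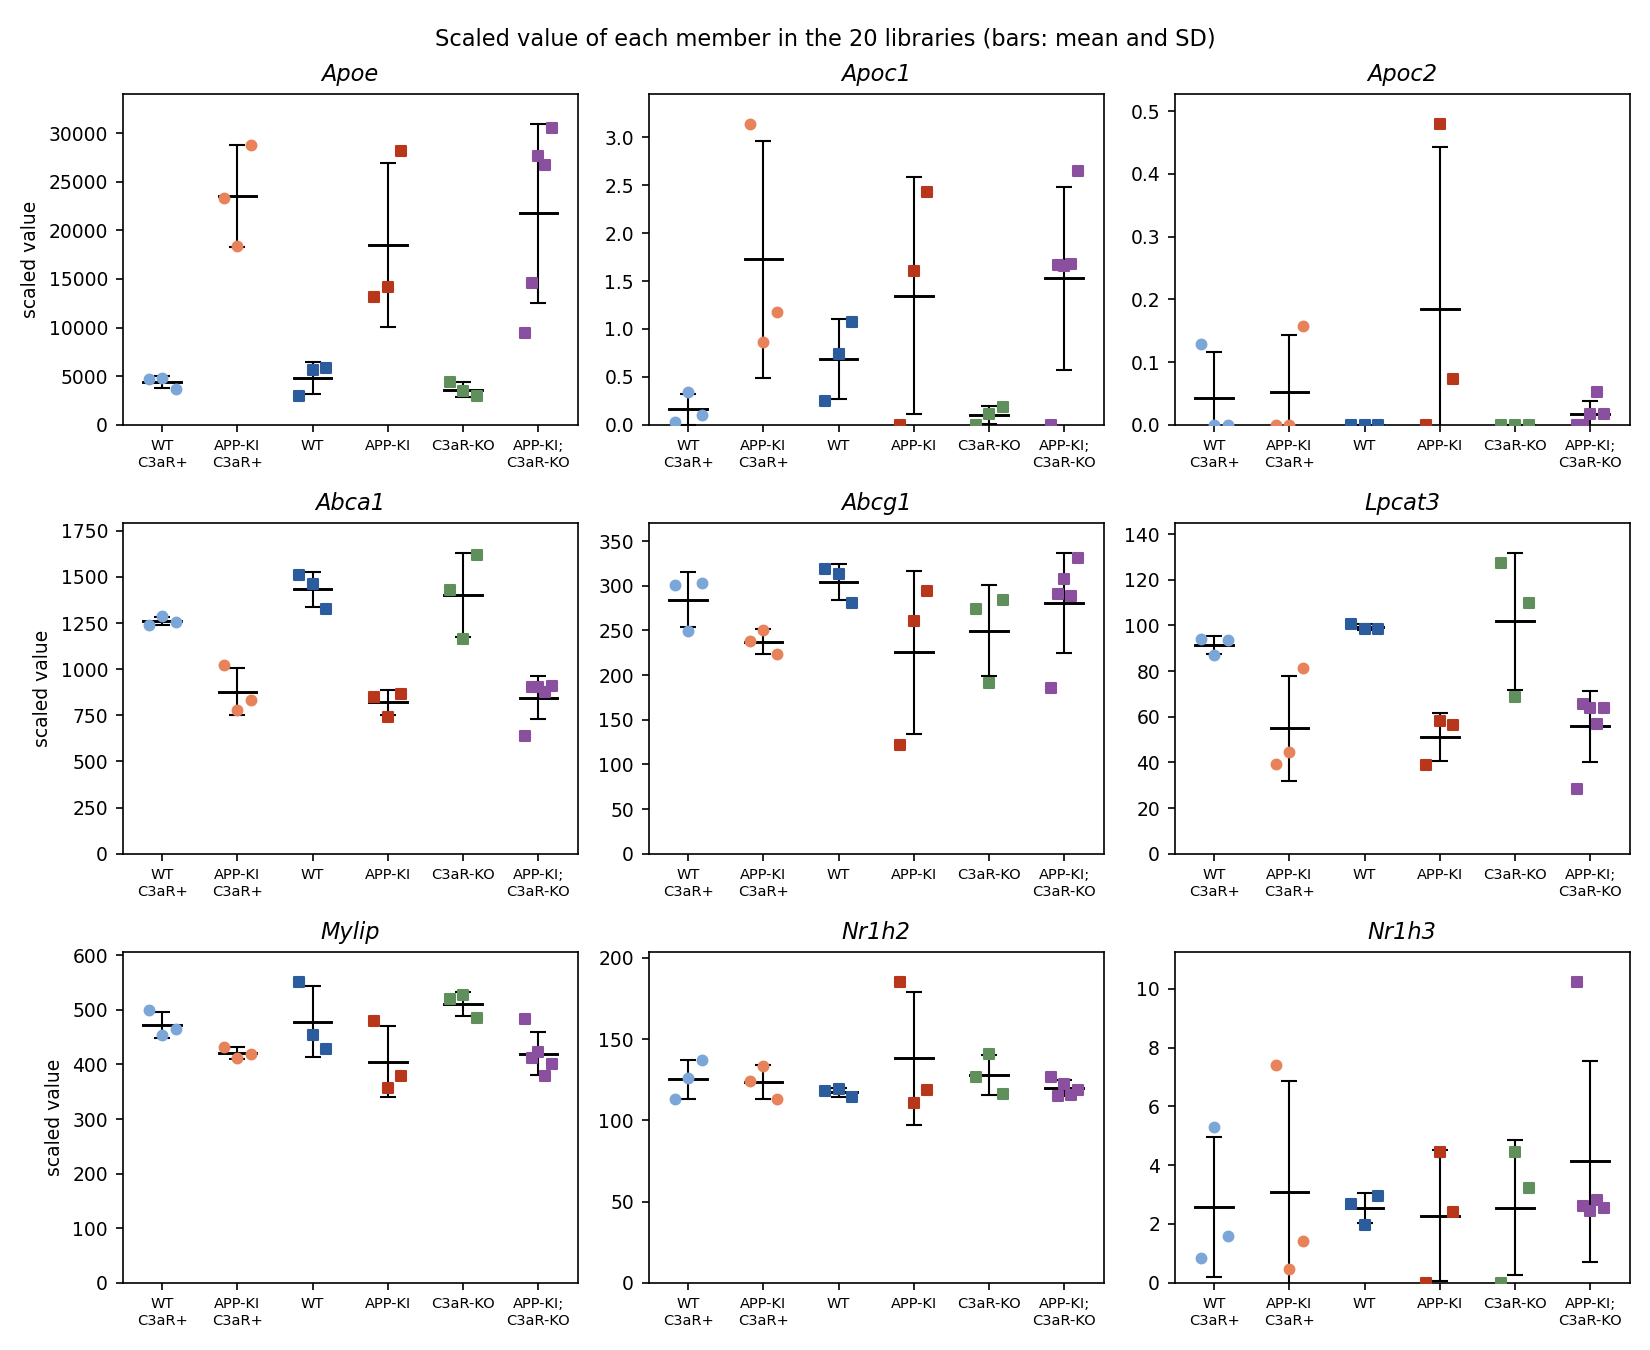
Scaled values of the 9 genes in each library (points) by group, with the mean and SD of each group; each panel has its own axis, which starts at 0. Apoe in the 11 APP-KI libraries sits between 9438 and 30528, above the 2947 to 5865 of the 9 others, and Abca1 between 638 and 1022, below the 1163 to 1618 of the others.

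Apoe was 5.31-fold higher in APP-KI than in WT among C3aR-positive libraries, a log2 fold change of 2.41 (SE 0.28, 95% interval 1.79 to 3.03, limma, adjusted p = 0.000362). In the all sorted libraries it was 4.55-fold higher (log2 fold change 2.19, SE 0.42, 95% interval 1.29 to 3.09, adjusted p = 0.00707), and without C3ar1 4.81-fold higher (APP-KI; C3aR-KO against C3aR-KO, log2 fold change 2.27, SE 0.37, 95% interval 1.47 to 3.07, adjusted p = 0.00163). Its share of all reads was 0.483% ± 0.164 (SD, n = 3) in WT all sorted libraries, 1.88% ± 0.748 (n = 3) in APP-KI and 2.11% ± 0.815 (n = 5) in APP-KI; C3aR-KO. Per kilobase of exon, Apoe had the highest level of the 20968 genes with a length in every one of the 11 APP-KI libraries, and it ranked from 3rd to 10th in the 9 others.

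The rise of Apoe in C3aR-positive libraries was past the threshold in all 13 alternative analyses. In the all sorted libraries it was lost without the term for the library series (adjusted p = 0.0812), without WT replicate 4 (0.0773) and without APP-KI replicate 6 (0.0663), with log2 fold changes that stayed at 1.92 or more. It was also lost with DESeq2 (log2 fold change 2.25, adjusted p = 0.199), which gave Apoe a dispersion of 0.617, where edgeR gave 0.0681 and a search over a grid of values 0.08. A replicate block, which is a term for the replicate number, lost it as well (log2 fold change 2.19, limma, adjusted p = 0.395). In APP-KI; C3aR-KO against C3aR-KO the call was lost with DESeq2 too (log2 fold change 2.22, adjusted p = 0.0781) and with the block (2.14, adjusted p = 0.164). The log2 fold change was 1.67 without C3aR-KO replicate 3 (adjusted p = 0.0267). It was 3.26 without the 4 libraries with reads on the fewest genes, an alternative chosen after seeing the data that leaves C3aR-KO with replicate 3 alone. Within the library series, Apoe was higher in APP-KI than in WT by 2.21 on the log2 scale in the second (2 libraries against 1) and by 2.29 in the third (1 against 2). Against C3aR-KO, APP-KI; C3aR-KO was higher by 1.59 in the second (2 against 2) and 3.26 in the third (3 against 1). The 4 lowest values of Apoe among libraries with plaques, from 9438 to 14566, were the 4 of the second series.

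Cells other than microglia also make Apoe, and their markers were read beside it. The summed scaled values of 10 astrocyte markers were 305 to 417 in WT and 223 to 284 in APP-KI C3aR-positive libraries, and 268 to 320 and 214 to 365 in the all sorted ones, with no marker of the list at 0 in a whole group. Gfap, of this list, rose by 2.58 in the C3aR-positive comparison and Slc1a3 fell by 0.55. The sum of 8 markers of border macrophages was lower with plaques, at 186 to 419 against 490 to 724 in C3aR-positive libraries and at 277 to 295 against 458 to 1221 in all sorted ones, and 5 of these 8 fell in the first comparison. A higher sum with plaques was seen for 8 endothelial markers, at 307 to 528 against 109 to 159 in C3aR-positive libraries. Of the 7 tested there, Flt1 and Slc2a1 rose and Pecam1 fell. The median log2 fold change of the 7 was −0.78, beside −0.17 for all genes. In all sorted libraries the sum was 307 to 402 in APP-KI against 122 to 125 in WT, with 1 marker called, higher, and a median of 1.19. The sum of 9 oligodendrocyte markers was also higher in the C3aR-positive comparison, at 195 to 213 against 141 to 187, where Mbp rose by 1.07, and overlapped in all sorted libraries. Of 10 microglial markers, 5 fell in the C3aR-positive comparison. The part of these cells in the level of Apoe was not tested.

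The small apolipoproteins beside Apoe were barely detected. Apoc1 held 775 reads over the 11 APP-KI libraries and 178 over the 9 others, with scaled values from 0 to 3.14 against at most 1.08. It was under the filter on low values (a mean scaled value of 1) in the C3aR-positive fit, where the values were 0.0321, 0.106 and 0.341 in WT and 0.865, 1.18 and 3.14 in APP-KI. These were 1 to 7 reads a library in WT and 15 to 61 in APP-KI, near the floor, and their difference was not tested. In all sorted libraries Apoc1 had a log2 fold change of 0.57 in APP-KI against WT (95% interval −0.55 to 1.68, adjusted p = 0.841) and of 0.90 in APP-KI; C3aR-KO against C3aR-KO (95% interval −0.09 to 1.89, adjusted p = 0.297). The libraries at 0 reads, APP-KI replicate 4, C3aR-KO replicate 1 and APP-KI; C3aR-KO replicate 1, are among the 4 with reads on the fewest genes. Apoc1 passed the filter in this fit only through the APP-KI groups, its mean being under 1 in WT and in C3aR-KO. Apoc2 held 34 reads in APP-KI libraries, 23 of them in APP-KI replicate 5 and 11 without it, and 4 in the others, all in WT C3aR-positive replicate 1, and it was under the filter in each fit. Apoc4, the gene between Apoc1 and Apoc2, held 792 against 26.

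Abca1, the exporter that loads lipid onto ApoE, was lower with plaques. Its scaled values were 1328, 1461 and 1509 in WT all sorted libraries and 1163, 1428 and 1618 in C3aR-KO, against 743, 851 and 868 in APP-KI and 638, 878, 902, 903 and 911 in APP-KI; C3aR-KO. In C3aR-positive libraries they were 1241, 1255 and 1288 in WT and 777, 834 and 1022 in APP-KI. As with Apoe, the 11 libraries with plaques and the 9 without did not overlap, but here those with plaques were the lower ones. Abca1 fell by 0.53 on the log2 scale in the C3aR-positive comparison (SE 0.14, 95% interval −0.84 to −0.23, limma, adjusted p = 0.0214), by 0.75 in APP-KI against WT all sorted (SE 0.18, 95% interval −1.14 to −0.37, adjusted p = 0.0286) and by 0.77 in APP-KI; C3aR-KO against C3aR-KO (SE 0.16, 95% interval −1.11 to −0.43, adjusted p = 0.00842). On the linear scale its level fell by 30.9%, fell by 40.6% and fell by 41.4%.

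The fall of Abca1 was nearer the threshold than the rise of Apoe. In the C3aR-positive comparison it was lost without any of WT replicates 1 to 3 or APP-KI replicate 2 (adjusted p from 0.0586 to 0.0756), with no filter (0.0675) and with the replicate block (0.0545). It was also lost under median ratio scaling (log2 fold change −0.39, adjusted p = 0.0883) and with edgeR (−0.41, adjusted p = 0.0569), and kept with DESeq2. In all sorted APP-KI against WT it was lost without any of WT replicates 4 to 6, APP-KI replicates 5 or 6, or APP-KI; C3aR-KO replicates 3 or 4 (adjusted p from 0.0511 to 0.272). It was also lost with only the groups compared (0.0913) and with the replicate block (0.56). In APP-KI; C3aR-KO against C3aR-KO it was lost without C3aR-KO replicate 3 (0.0582) and with the block (0.203). Its direction was the same in each, and within the library series it was lower by 0.92 and 0.68 in APP-KI against WT and by 0.76 and 0.85 without C3ar1.

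Lpcat3, the phospholipid remodelling enzyme, had the same direction as Abca1 with a wider spread. Its scaled values in all sorted libraries were 98.5, 98.5 and 101 in WT and 68.7, 110 and 127 in C3aR-KO, against 39.1, 56.5 and 58.0 in APP-KI and 28.5, 57.0, 63.6, 63.9 and 65.6 in APP-KI; C3aR-KO. In C3aR-positive libraries they were 86.8, 93.4 and 93.8 in WT and 39.2, 44.5 and 81.4 in APP-KI. Over the 20 libraries those with and without plaques overlapped, with APP-KI C3aR-positive replicate 3 at 81.4 and C3aR-KO replicate 2 at 68.7. Lpcat3 fell by 0.80 in the C3aR-positive comparison (SE 0.24, 95% interval −1.33 to −0.26, limma, adjusted p = 0.0396) and by 0.95 in APP-KI; C3aR-KO against C3aR-KO (SE 0.26, 95% interval −1.50 to −0.39, adjusted p = 0.0394).

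In all sorted APP-KI against WT, Lpcat3 had a log2 fold change of −0.87 (SE 0.29, 95% interval −1.49 to −0.25) and did not pass (adjusted p = 0.141). It passed without the 4 libraries with reads on the fewest genes (−0.79, adjusted p = 6.8e-05) and without APP-KI; C3aR-KO replicate 1 alone (adjusted p = 0.017). The C3aR-positive call was lost without any of the 3 WT replicates or APP-KI replicates 1 or 2 (adjusted p from 0.086 to 0.115), with no filter (0.109), under median ratio scaling (0.11), with edgeR (0.129) and with DESeq2 (0.135). The call without C3ar1 was lost without C3aR-KO replicates 1 or 3, WT replicates 5 or 6, APP-KI replicate 6, or APP-KI; C3aR-KO replicates 3, 4 or 5 (adjusted p from 0.0566 to 0.143). It was also lost with no filter (0.094), under median ratio scaling (0.0535), with edgeR (0.07) and without the series term (0.0653). With only the groups compared (0.113) and with the replicate block (0.217) it was lost too, and not with DESeq2. Counting reads over the exonic bases shared with Emg1 bears on these values to an extent that was not tested.

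The exporter Abcg1 showed no call in any comparison. Its scaled values were 281 to 319 in WT and 122 to 294 in APP-KI all sorted libraries, where the lowest was APP-KI replicate 4, and 249 to 303 and 223 to 251 in the C3aR-positive ones. The log2 fold changes of APP-KI against WT were −0.25 (95% interval −0.52 to 0.01, adjusted p = 0.145) in C3aR-positive and −0.41 (95% interval −0.98 to 0.16, adjusted p = 0.663) in all sorted libraries, and 0.07 (95% interval −0.44 to 0.58) without C3ar1. Mylip, the ubiquitin ligase, was at 428 to 552 in WT, 485 to 527 in C3aR-KO, 357 to 479 in APP-KI and 379 to 484 in APP-KI; C3aR-KO all sorted libraries. Its log2 fold change was −0.17 (95% interval −0.40 to 0.07) in C3aR-positive and −0.30 (95% interval −0.61 to 0.01, adjusted p = 0.426) in all sorted libraries. Without the 4 libraries with reads on the fewest genes it was −0.39 and passed (adjusted p = 0.0199). Without APP-KI replicate 5 as well, where only APP-KI replicate 6 is left of its group, it did not.

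Of the receptors, neither Nr1h2 nor Nr1h3 was called in any comparison. Nr1h2 had scaled values of 111 to 185 with plaques, where only APP-KI replicate 4 exceeded 134, and of 113 to 141 without. Its log2 fold change was −0.02 (95% interval −0.30 to 0.26) in C3aR-positive and 0.16 (95% interval −0.21 to 0.53) in all sorted libraries, and the first turned to 0.12 under median ratio scaling. Nr1h3 lay between 0 and 10.2, with 0 reads in APP-KI replicate 4 and C3aR-KO replicate 1 and 454 in APP-KI; C3aR-KO replicate 1, all of them among the 4 libraries with reads on the fewest genes. Its intervals were wide (−1.65 to 1.65 in C3aR-positive and −2.05 to 1.20 in all sorted libraries).

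Per kilobase of exon, the members span a wide range of levels. In WT all sorted libraries, the mean scaled value per kilobase was 2252 ± 759 (SD, n = 3) for Apoe, 148 ± 20.2 for Mylip, 138 ± 9.04 for Abca1, 41.7 ± 2.79 for Abcg1, 35.0 ± 0.788 for Nr1h2, 30.4 ± 0.392 for Lpcat3, 1.01 ± 0.201 for Nr1h3, 0.925 ± 0.557 for Apoc1 and 0 for Apoc2. In this order, Mylip and Abca1 do not differ beyond their spread, nor do Nr1h3 and Apoc1. In APP-KI all sorted libraries, Abca1 was at 79.2 ± 6.50 per kilobase and Mylip at 125 ± 20.1, which no longer overlap. Nr1h2 was there at 41.2 ± 12.2 and Abcg1 at 30.9 ± 12.5, in the reverse order of their means and within their spread. The highest Nr1h2 (55.3) and the lowest Abcg1 (16.7) of the group were both of APP-KI replicate 4, among the 4 libraries with reads on the fewest genes.

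Of the 7 members tested in the C3aR-positive comparison, 3 were called, where 22.7% of the 12307 genes tested were. In all sorted APP-KI against WT 2 of 8 were called, against 4.14% of 12401 genes, and in APP-KI; C3aR-KO against C3aR-KO 3 of 8, against 6.93%. Over the 20 libraries, 2 of 7 members had values that did not overlap between the 11 libraries with plaques and the 9 others, against 5.04% of 12370 genes, of which 332 lay wholly above and 291 wholly below. In the C3aR-positive libraries the deposited scaling put the log2 change of the median gene at −0.17, and at −0.03 under median ratio scaling. Relative to this median, Apoe was at 2.58, Abca1 at −0.37, Lpcat3 at −0.63, Abcg1 at −0.09, Mylip at 0.00 and Nr1h2 at 0.15. The share of genes called that were higher in APP-KI was 57.3% as deposited and 75.3% under median ratio scaling.

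**Figure D2:**
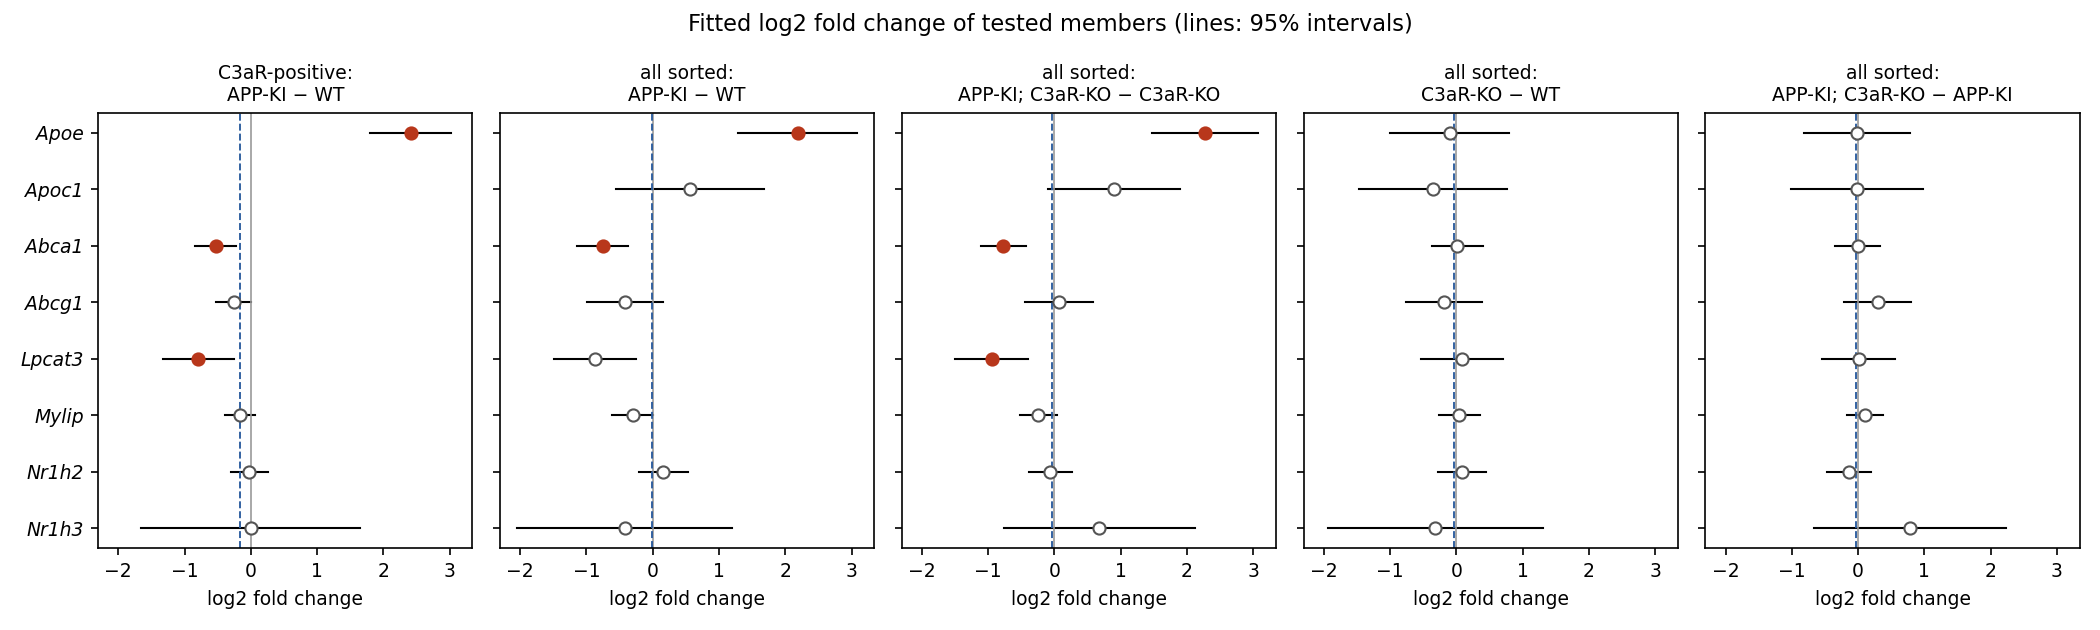
Log2 fold change of each tested member with its 95% interval in 5 comparisons; filled red points have an adjusted p under 0.05 and the blue dashed line is the median of all genes tested. Apoe lies between 2.19 and 2.41 in the 3 comparisons of mice with and without plaques and at −0.02 and −0.10 in those of C3ar1 loss.

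Loss of C3ar1 was compared next, since the study asks what the receptor does in microglia with plaques. In APP-KI; C3aR-KO against APP-KI none of the 8 members tested was called, and 0.00806% of genes were, which is C3ar1 alone. By limma, 147 genes had an unadjusted p under 0.05 there, none of them a member, and edgeR and DESeq2 called no member either. Apoe had a log2 fold change of −0.02 (95% interval −0.82 to 0.78), Abca1 of −0.01 (−0.35 to 0.34), Lpcat3 of 0.01 (−0.54 to 0.56) and Abcg1 of 0.30 (−0.21 to 0.80). The upper bound of Abca1, 0.34, is smaller than the 0.75 by which it fell in APP-KI against WT, a comparison that shares the APP-KI libraries. The interval of Apoe is wider and runs from 0.565 to 1.72 times its APP-KI level.

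In mice without plaques, C3aR-KO against WT called none of the 8 members with limma, edgeR or DESeq2, where limma called 0.00806% of genes (again C3ar1) and gave 344 an unadjusted p under 0.05. Apoe had a log2 fold change of −0.10 (95% interval from 0.499 to 1.74 times its WT level) and Abca1 was at 0.01 (−0.37 to 0.40). The interaction, which asks whether the APP-KI effect differs with and without C3ar1, called no gene by limma (0%), with 203 at an unadjusted p under 0.05, none by edgeR and 1 by DESeq2, which is not a member. It was 0.08 for Apoe (95% interval −1.15 to 1.31), −0.02 for Abca1 (−0.55 to 0.51) and −0.07 for Lpcat3 (−0.92 to 0.77). Without C3aR-KO replicate 3, Apoe was at −0.62 in the interaction and at 0.51 in C3aR-KO against WT, neither of them called. Without the 4 libraries with reads on the fewest genes it was at 0.98 and −0.96, with C3aR-KO replicate 3 as the only library of its group.

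The C3aR-positive libraries were also set against the all sorted ones of the same genotype. All C3aR-positive libraries are of 1 library series and come from the reporter line, so that the sort, the series and the line cannot be told apart. None of the 7 members tested was called in WT, in APP-KI or for the difference of the APP-KI effect between the sorts, and limma called 0% of the 12581 genes in each. At an unadjusted p under 0.05 it gave 552, 657 and 1480 genes and no member, edgeR called none, and DESeq2 called 39, 28 and 120 genes and no member. The difference of the APP-KI effect was 0.49 for Apoe (95% interval −0.75 to 1.74), 0.27 for Abca1 (−0.18 to 0.72) and 0.17 for Lpcat3 (−0.54 to 0.87). These intervals leave room for sizeable differences in either direction.

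Partners and cofactors of LXR were listed beside the members, 14 in number and all tested. In C3aR-positive APP-KI against WT 1 rose and 2 fell, where 22.7% of all genes tested were called. In all sorted libraries 1 rose and 1 fell, where 4.14% of all genes were called. The median log2 fold changes were −0.23 and −0.15, beside −0.17 and −0.01 for all genes. Rxrg, 1 of the 3 retinoid X receptors, rose by 2.16 (adjusted p = 0.000988) and by 2.57 (adjusted p = 0.00189), with values of 4.97 to 7.01 in WT and 22.9 to 34.9 in APP-KI C3aR-positive libraries. Rxra, another retinoid X receptor, had log2 fold changes of 0.01 and −0.05. Nrip1, a corepressor of nuclear receptors, fell by 1.12 (adjusted p = 0.000123) and 1.30 (adjusted p = 0.000369), and the coactivator Ncoa3 fell by 0.35 in the C3aR-positive comparison (adjusted p = 0.0411), a call lost under median ratio scaling. Without the 4 libraries with reads on the fewest genes, 1 of the 14 rose and 5 fell in all sorted libraries. Of all genes tested, 3509 were called there in place of 514.

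Other known LXR targets held genes that rose and genes that fell. Of 16 listed, 13 were tested. In C3aR-positive libraries 7 rose and 1 fell (median log2 fold change 0.98), where 22.7% of all genes were called. In all sorted ones 2 rose and 1 fell (median 0.45), where 4.14% were called. Without the 4 libraries with reads on the fewest genes 6 rose and 4 fell, where 3509 genes were called in place of 514. Lpl, which frees fatty acids from lipoproteins, rose by 5.05 (adjusted p = 4.04e-06) and 5.32 (adjusted p = 6.24e-06), and Acaca, the first enzyme of fatty acid synthesis, rose by 2.95 and 3.43 (adjusted p = 1.49e-05 and 8.05e-07). Smpdl3a, a phosphodiesterase, and the desaturase Scd2 rose by 2.02 and 1.41 in the C3aR-positive comparison (adjusted p = 0.000762 and 0.000235). Tgm2, a transglutaminase, fell by 1.73 and 1.91 (adjusted p = 8.39e-05 and 0.00181), the direction of Abca1 and Lpcat3. Srebf1, the LXR target that drives fatty acid genes and was named after its values were seen, had log2 fold changes of 0.98 and 0.45, with adjusted p = 0.000967 and 0.607.

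**Figure D3:**
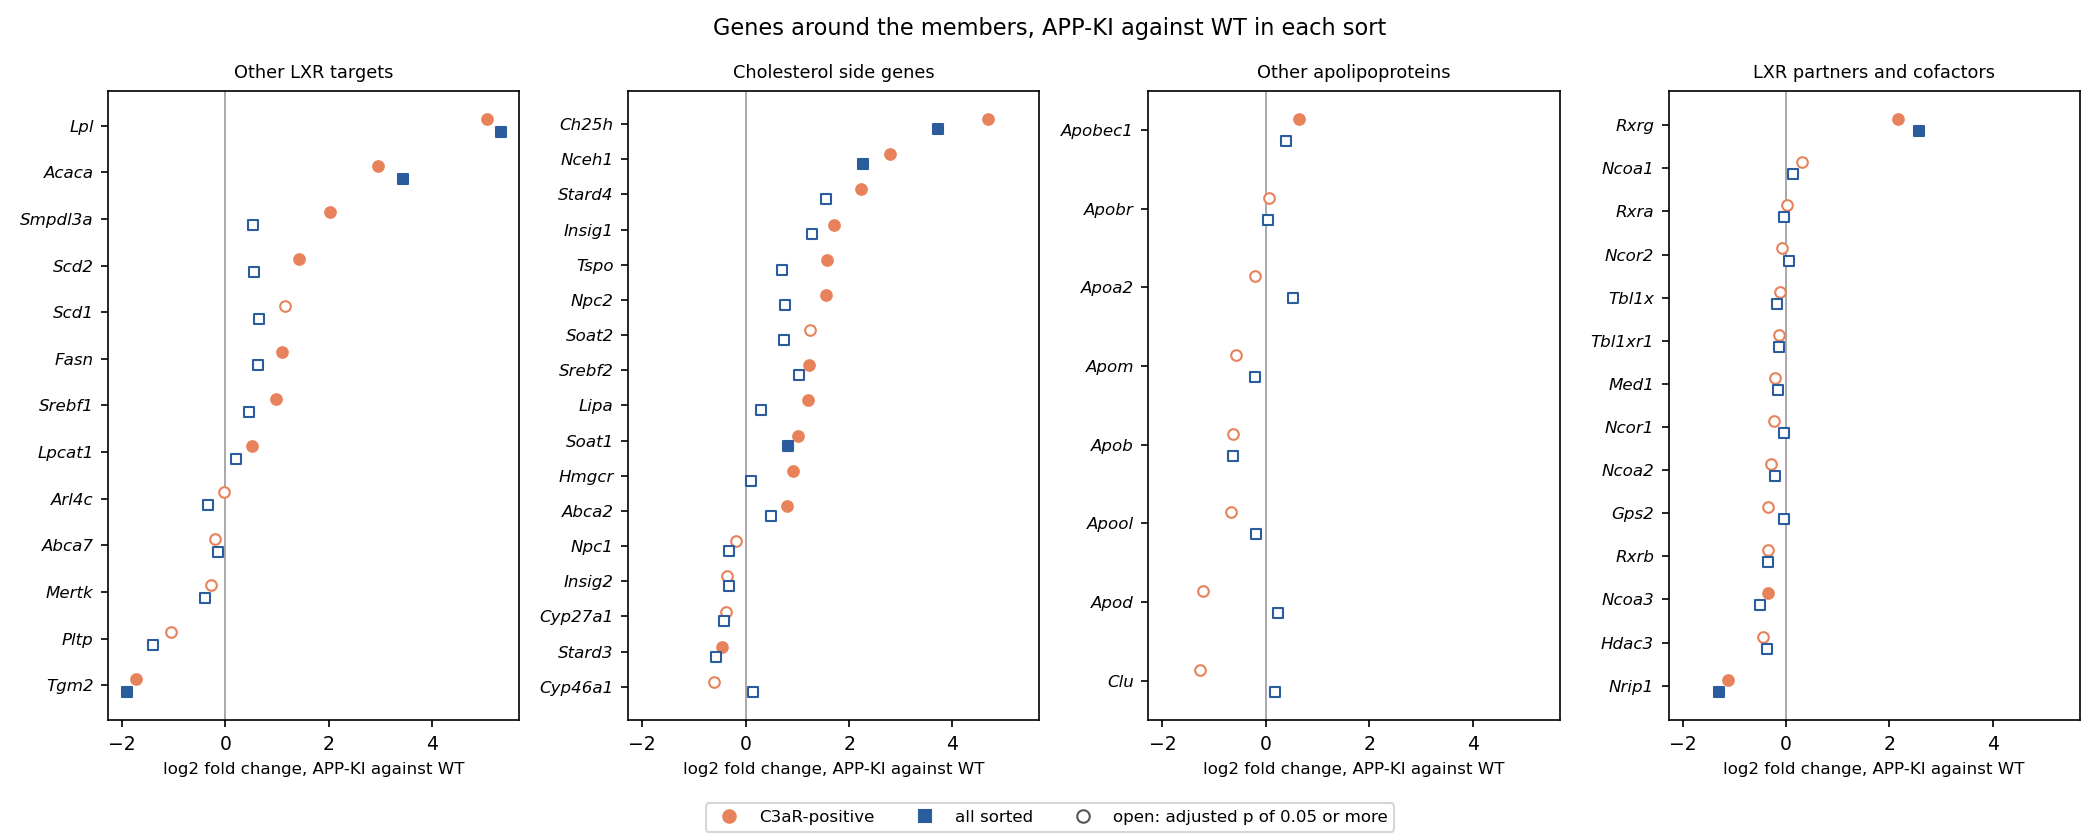
Log2 fold change of APP-KI against WT for the tested genes of 4 lists, in C3aR-positive (circles) and all sorted (squares) libraries; open symbols did not pass an adjusted p under 0.05. Lpl and Ch25h lie farthest to the right, at 5.05 and 4.69 in C3aR-positive libraries, and Tgm2 and Nrip1 are among those below 0.

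Genes of cholesterol synthesis, storage and trafficking were listed too. Of these 18, 17 were tested, 11 rose and 1 fell in C3aR-positive libraries (median 1.20), and 3 rose and none fell in all sorted ones (median 0.70). Of all genes, 22.7% and 4.14% were called in these comparisons. Under median ratio scaling the 11 rose and none fell. In all sorted libraries without the 4 with reads on the fewest genes 10 rose and 2 fell. There, 3509 genes were called in place of 514. Ch25h, the cholesterol hydroxylase whose product is an LXR ligand, rose by 4.69 (adjusted p = 6.76e-05) and 3.72 (adjusted p = 3.34e-05). Nceh1, a hydrolase of cholesterol esters, rose by 2.78 and 2.28 (adjusted p = 1.69e-05 and 0.00346). Stard4, a sterol carrier, Insig1, a sterol-responsive brake on synthesis, and Tspo, a mitochondrial protein, rose by 2.24, 1.72 and 1.57 in C3aR-positive libraries (adjusted p = 0.00169, 0.00113 and 0.012). Soat1, which esterifies cholesterol for storage, was among the genes that rose in all sorted libraries, by 0.81 (adjusted p = 0.0226).

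On the uptake side, 9 lipoprotein receptors and substrates of MYLIP were listed, and 8 were tested. In C3aR-positive APP-KI against WT 3 rose and 5 did not pass, where 22.7% of all genes were called. In all sorted libraries 1 rose and 7 did not pass, where 4.14% were called. The medians were −0.06 and 0.24, beside −0.17 and −0.01 for all genes. Scarb1, a receptor for high-density lipoprotein, was named after its values were seen. It rose by 1.36 in C3aR-positive and by 1.27 in all sorted APP-KI against WT (limma, adjusted p = 0.000754 and 0.00322).

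Among 22 other genes of apolipoproteins and their processing, only 8 were expressed enough to be tested. In C3aR-positive libraries 1 rose, Apobec1, the enzyme that edits Apob messenger RNA, by 0.64 (limma, adjusted p = 0.016). In all sorted libraries none was called by limma. The medians of the list were −0.61 and 0.12, beside −0.17 and −0.01 for all genes. Without the 4 libraries with reads on the fewest genes, 2 of 9 tested rose in all sorted APP-KI against WT. Of all genes tested, 3509 were called there in place of 514. Of 6 neighbours of Apoe on chromosome 7 that could be tested, 2 rose in C3aR-positive libraries. They were Clptm1, by 0.76, and Relb, by 0.61 (limma, adjusted p = 0.0104 and 0.0445), both named after their values were seen. In all sorted libraries none was called. The medians of the list were 0.23 in C3aR-positive and 0.06 in all sorted libraries. Without the same 4 libraries, 2 of 7 tested rose and 1 fell in all sorted APP-KI against WT. Of the 6 other genes of the Lpcat family, 1 rose and 2 fell in the C3aR-positive comparison and 1 fell in the all sorted one. Lpcat2, which was named after its values were seen, fell by 0.89 and 1.09 (limma, adjusted p = 0.000525 and 0.0303). None of the genes in these lists was called in APP-KI; C3aR-KO against APP-KI, in C3aR-KO against WT or for the interaction, where C3ar1 was the only gene limma called, if any.

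The relation of Apoe and Abca1 was not steady among libraries with and without plaques, each pooled over sorts and C3ar1 genotypes. Among the 11 libraries with plaques, Pearson's r of Apoe and Abca1 on log2(scaled value + 1) was 0.67 (Spearman's rho 0.54) and 0.44 without the 2 libraries farthest from the median of Apoe, and among the 9 others it was −0.26 and 0.67. These points share library series and scaling, and among the 9 the sign rested on 2 libraries. Across all 20 libraries, the genes whose pattern was most like that of Apoe, among 8843 genes with mean scaled values from 10 upwards, were Fam20c, Hif1a and Axl (r = 0.97 each). Nearest to Abca1 were Gab1, Ttc7 and Rps6ka1 (r = 0.96 each), to Lpcat3 Slc2a5, Wasf2 and Cmtm6 (0.95, 0.95 and 0.94), and to Mylip Tanc2, Tcf4 and Sik2 (0.94, 0.92 and 0.91). For Abcg1 they were Ccdc32, Rangap1 and Slc35b2 (0.95, 0.94 and 0.94), for Nr1h2 Timm44, Atad3a and Ap1ar (0.86, 0.85 and 0.85), and for Nr1h3 Rinl, Hus1 and Tusc2 (0.92, 0.86 and 0.78). For Apoe and Abca1, these 20 libraries fall into groups that do not overlap. The highest Nr1h2, the lowest Abcg1 and both extremes of Nr1h3 lie in the 4 libraries with reads on the fewest genes. How far these r rest on those libraries was not tested.

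**Figure D4:**
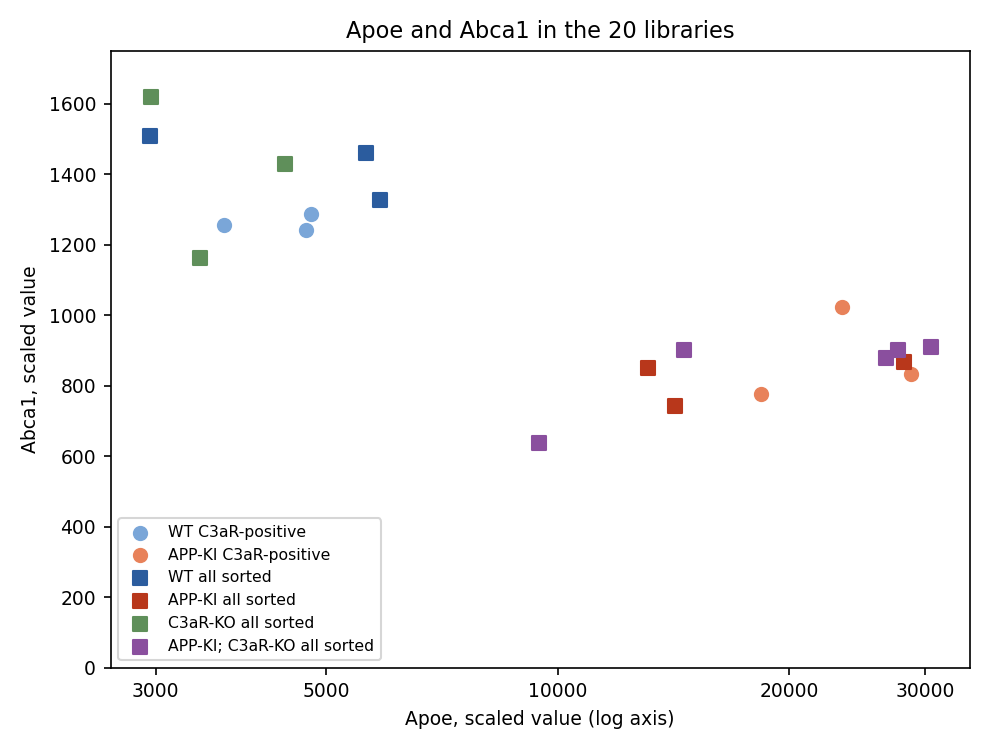
Scaled values of Apoe (log axis) and Abca1 in each of the 20 libraries, marked by group. The 11 libraries with plaques lie at the lower right, at Apoe of 9438 or more and Abca1 of 1022 or less, and the 9 others at the upper left, at Apoe of 5865 or less and Abca1 of 1163 or more.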

How the data were processed

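RNA-seq libraries were made with the Takara SMARTer Total RNA Pico v3 kit and sequenced on an Illumina NovaSeq. Reads were aligned to mm10 with TopHat, and cutadapt, featureCounts and DESeq2 are listed in the submitters' processing notes. How molecular identifiers were used is not given in the sources used here. The deposited values, named FPKM by the authors, are a signal: each gene's read count over its library's 75th percentile of counts, with no division by length. They were multiplied by 35.1, a constant set once the unit was known, to give scaled values. Whole reads were recovered for 100% of values in all 20 libraries (tolerance 0.05). The design had been written for FPKM, and its log-scale test was kept. Genes whose mean scaled value was 1 or more were tested on log2(scaled value + 1), which understates changes of low genes, with limma 3.58.1 (R 4.3.3), an intensity trend in the variance and p-values adjusted by Benjamini-Hochberg across genes, and called at an adjusted p under 0.05. A separate fit was made of the 6 C3aR-positive libraries, and another of the 14 all sorted ones with the library series as a term, and one more of the 12 WT and APP-KI libraries for the sorts. Intervals are 95% intervals of these fits.

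Alternatives were a pseudocount of 0.1, no filter or a filter at 5, median ratio scaling, edgeR 4.0.16 and DESeq2 1.42.0 on recovered reads, a replicate block, no series term, only the groups compared, and each library left out. The scripts were tested on simulated data. Other steps used Python 3.11.15, NumPy 2.4.6, pandas 2.3.3 and Matplotlib 3.10.9. Gene positions and lengths are those of GENCODE M21 for GRCm38, and 98.4% of symbols were found there. Replicates differed by more than counting noise (chi-square per degree of freedom 21.6 to 967). The members and the gene lists were chosen with earlier results of these data known. Named are all members, up to 5 called genes per list and comparison with the largest change from 4 lists (LXR partners, other LXR targets, other apolipoproteins and cholesterol genes), and the 3 genes most like each member.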

Additional observations from a re-analysis of the deposited data

Results flagged for a closer look

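In APP-KI; C3aR-KO libraries, the only group large enough for the check of single libraries, 1 library stood far from the others for 3 of the 9 genes. The share of all genes for which this holds was not counted. The gap to the nearest library, as a share of the range of the group, was 0.877 for Abca1, whose lowest value was 638 and whose others were 878 to 911. It was 0.768 for Lpcat3, with a lowest value of 28.5 beside 57.0 to 65.6, and 0.955 for Nr1h3, with a highest value of 10.2 beside 2.45 to 2.80. The limit for 5 samples is 0.71. All 3 values belong to replicate 1, which also had reads on the fewest genes of all libraries (12387), and the part of this in the values was not tested. Over genes at large, replicate 1 differed from the other replicates of its group by a chi-square per degree of freedom of 544 to 967. Among those others it was 21.6 to 191, so that the 3 of 9 is not read as a trait of these genes.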

How the results depend on the processing

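Members called in the C3aR-positive comparison numbered 3, and 1 with no filter, with median ratio scaling or with edgeR, and 1 to 3 with a library left out. In all sorted APP-KI against WT they numbered 2, and 1 with DESeq2, without the series term or with only the groups compared, 0 with the replicate block, 0 to 3 with a library left out (0 where APP-KI replicate 6 or WT replicate 4 was left out), and 5 without the 4 libraries with reads on the fewest genes (among them Apoc1, which passed the filter through groups where it is high). In APP-KI; C3aR-KO against C3aR-KO they numbered 3, 0 with the replicate block and 1 to 3 with a library left out (1 without C3aR-KO replicate 3). The other comparisons had 0 under each alternative run. A replicate block could not be fitted for the sorts, whose numbers do not repeat.

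All 164 values of called members under alternatives had the direction reported, and 115 were past the threshold. Of 1302 values of members not called, 7 passed and 141 had the other sign without passing. What changed these calls was not tested. Same-numbered libraries did not all go together (r from −0.31 to 0.25), so that the numbers were not taken as pairs. With the block, 111 genes were called in APP-KI against WT in place of 514 and 243 in APP-KI; C3aR-KO against C3aR-KO in place of 860, and Abca1 was lost in the C3aR-positive comparison (adjusted p = 0.0545). Without the 4 libraries, an alternative chosen after seeing the data, 3509 were called in APP-KI against WT. Counts are not given where a compared group is left with 1 library. With only the groups compared, 443 were called in APP-KI; C3aR-KO against C3aR-KO in place of 860. Leaving out 1 library gave 1777 to 2528 in the C3aR-positive comparison, in place of 2798, and 218 to 837 and 614 to 1398 in the others. Apoc1, Apoc2 and Nr1h3 had few or no reads in some libraries, and the part of depth in this was not tested.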
